A study of Homo sapiens with 7 samples.

Results

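The comparison set 2 small interfering RNAs against TEAD1 beside each other in HepG2, an established human liver cancer line. TEAD1 is a DNA-binding transcription factor that acts at the end of the Hippo pathway together with the coactivators YAP and TAZ. Small RNA was sequenced from 7 libraries, of which 6 came from cells that received siRNA 1 or siRNA 2 for 24, 36 or 48 h, with 1 library for each siRNA and time, and 1 came from untreated cells (0 h). All 3 libraries of siRNA 2 were compared with all 3 of siRNA 1, with time as a factor, over 435 of 2652 human miRNAs, those whose count averaged at least 10 over the 6 libraries. The labels describe the cells that received siRNA as TEAD1 knockdown and the untreated cells as wild type, and they give the same liver cell line for all 7 libraries. They name no control siRNA, so time in culture, transfection and loss of TEAD1 cannot be told apart. The small RNA counts used here do not hold the mRNA of TEAD1. The labels do not say that the libraries came from separate cultures. A p-value here thus reflects the spread among these 6 libraries alone, which may be technical. With 1 library for each siRNA at a time, the siRNA and the library cannot be told apart at a single time.

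A siRNA is a short duplex that loads into Argonaute, the same protein that carries miRNAs, and cuts the mRNA it matches. A second siRNA with another sequence against the same mRNA is a common check, because effects through the target should be shared while effects of the sequence itself should not. A miRNA hairpin gives a 5p and a 3p arm, and the miRNA finds its targets mainly through its seed, bases 2 to 8 from the 5′ end. miRNAs with 1 seed form a family with overlapping targets, and both arms of a hairpin arise from 1 precursor.

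The mature sequences below come from the RefSeq table of GRCh38.p14, written 5′ to 3′ with the seed in capitals. The table held 389 of the 435 names. The sets show family members and arms whose difference between the siRNAs was unlike in size or direction, and single miRNAs on which the results turn.
miR-32-5p: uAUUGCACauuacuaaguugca
miR-25-3p: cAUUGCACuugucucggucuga
miR-92a-3p: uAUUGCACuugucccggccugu
miR-106b-5p: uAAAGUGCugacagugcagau
miR-93-5p: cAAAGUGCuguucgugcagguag
miR-301a-3p: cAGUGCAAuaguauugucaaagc
miR-130b-3p: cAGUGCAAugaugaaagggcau
miR-29b-3p: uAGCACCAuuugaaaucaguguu
miR-29a-3p: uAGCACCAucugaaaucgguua
let-7b-3p: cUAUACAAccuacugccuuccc
let-7a-3p: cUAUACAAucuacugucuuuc
miR-340-5p: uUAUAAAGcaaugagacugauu
miR-340-3p: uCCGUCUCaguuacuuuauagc
miR-374a-3p: cUUAUCAGauuguauuguaauu
miR-101-3p: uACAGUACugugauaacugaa
miR-365a-5p: aGGGACUUuugggggcagaugug
miR-139-5p: uCUACAGUgcacgugucuccagu
miR-4521: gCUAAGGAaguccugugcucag
miR-122-5p: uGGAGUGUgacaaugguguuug
miR-1-3p: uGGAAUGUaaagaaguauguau
miR-206: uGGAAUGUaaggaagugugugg

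Between 1920832 and 3739729 reads of a siRNA-treated library were assigned to a miRNA, and the 435 miRNAs held 99.9% of them. The share of all reads assigned to a miRNA was 26.5%, 13.4% and 15.2% with siRNA 1 at 24, 36 and 48 h, and 18.0%, 15.8% and 15.9% with siRNA 2. The share with siRNA 2 minus that with siRNA 1 averaged -1.84 percentage points ± 5.85 (SD, n = 3 times; exact two-sided sign-flip permutation p = 1, where the smallest possible p is 0.25). It was 1.51 points without the 24 h pair, so its sign rests on that pair. A miRNA with 0 reads could have up to 3, which is 0.898 to 1.56 CPM (read counts scaled by library size), and such limits and all intervals cover counting error only. Of the 7 hepatocyte and HepG2 markers, 5 had reads in each siRNA-treated library, at a summed 16700 to 20700 CPM under siRNA 1 and 17600 to 28600 CPM under siRNA 2, while miR-885-5p and miR-483-3p were at 0 in all 6. Most of each sum was miR-148a-3p, at 14630 to 17480 CPM under siRNA 1 and 14380 to 26510 CPM under siRNA 2. miR-122-5p stood at only 4.36 to 49.0 CPM under siRNA 1 and 3.88 to 6.82 CPM under siRNA 2.

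The libraries at 36 h did not lie beside each other. The distance between libraries was taken as the root mean square of the difference in log2 CPM over the 435 miRNAs. At 24, 36 and 48 h the siRNAs were 0.57, 1.22 and 0.48 apart. The siRNA 1 library at 36 h lay at 0.61 and 0.69 from the 24 h libraries of siRNA 1 and siRNA 2 and at 0.71 from untreated cells, but at 1.09 and 1.07 from the 48 h libraries. The siRNA 2 library at 36 h lay at 0.49 and 0.62 from the 48 h libraries of siRNA 1 and siRNA 2, and at 1.16 from each 24 h library. Whether a label at 36 h is wrong was not tested, and every value takes the labels as given.

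**Figure D1:**
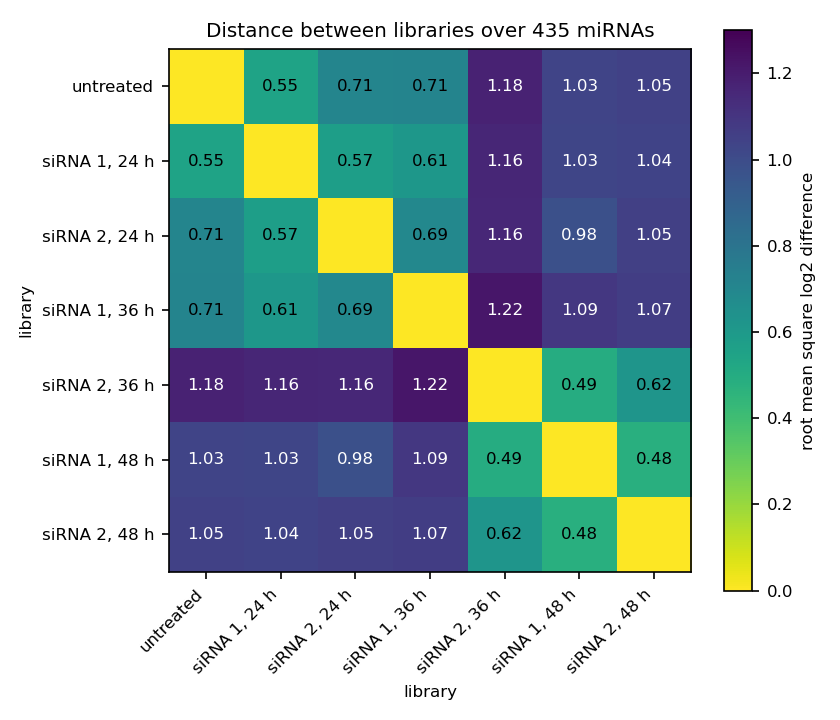
Root mean square log2 difference over 435 miRNAs between each pair of the 7 libraries (colour and printed value). Untreated, both 24 h and the siRNA 1 36 h libraries are near each other, and the siRNA 2 36 h library is near both 48 h libraries.

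No miRNA passed the test of siRNA 2 against siRNA 1 over the 3 times. edgeR's quasi-likelihood test with Benjamini-Hochberg adjustment called 0 of 435 (0%), while 6 had an unadjusted p under 0.05, and gave a smallest adjusted p of 0.992. limma-voom called 0 with 6 at that level, and DESeq2 called 0 with 10. Without both 36 h libraries edgeR also called 0 (of 437, 7 at that level), and leaving out each library in turn it called 0 with 2 to 11. The main fit has 2 residual degrees of freedom, with the wide 36 h pair in its residual, and the fits without libraries have fewer. The 0 calls thus do not show that the siRNAs gave the same levels. The median log2 fold change of siRNA 2 against siRNA 1 was -0.02 over all 435. A miRNA was higher with siRNA 2 at all 3 times in 38 cases (8.74%) and lower at all 3 in 37 (8.51%), while 183 were higher at 2 times and 177 at 1.

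The miRNAs named over the 3 times are those of smallest unadjusted p in each direction among the 22 higher and 21 lower miRNAs that averaged at least 50 reads and kept 1 sign at all times. None passed the test, and every adjusted p named here is edgeR's 0.992. Among the higher ones, miR-615-3p, which lies in the HOXC cluster, stood at 147, 194 and 580 CPM under siRNA 1 at 24, 36 and 48 h and at 209, 588 and 657 CPM under siRNA 2. Its log2 fold change was 0.76 ± 0.34 (SE), and the ranges of the siRNAs overlap because under both the 48 h level was several times the 24 h level. miR-1260b stood at 6.59, 14.6 and 90.2 CPM under siRNA 1 and at 8.25, 44.3 and 104 CPM under siRNA 2, a log2 fold change of 0.70 ± 0.40. Both values rest on the 36 h libraries: without that of siRNA 1 they were 0.34 and 0.25, and without that of siRNA 2 0.37 and 0.27. With time as a factor, either omission takes the whole 36 h pair out of the difference, so these are not separate checks. The other 8 (miR-105-5p, miR-1180-3p, miR-3615, miR-18a-3p, miR-1246, miR-193b-3p, miR-365b-3p and miR-6866-5p) had values from 0.36 to 0.56. Reads of miR-365b-3p cannot be told from those of miR-365a-3p, which has the same mature sequence. The differences of miR-365a-3p were 0.22, 0.33 and 0.04 at 24, 36 and 48 h, smaller than the 0.27, 0.61 and 0.20 of miR-365b-3p.

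On the lower side, miR-4521 had the smallest p of those named by this rule. It stood at 493, 325 and 192 CPM under siRNA 1 and at 248, 259 and 109 CPM under siRNA 2, beside 589 CPM untreated. Its differences were -0.99, -0.33 and -0.81 on the log2 scale at the 3 times, and its log2 fold change over them was -0.71 ± 0.27 (SE, edgeR adjusted p = 0.992, 0.385 to 1 over the alternatives). It lies between genes at chromosome 17, 8186948 to 8186969, plus strand (GRCh38.p14). miR-374b-3p stood at 85.3, 71.4 and 24.0 CPM under siRNA 1 and at 55.2, 19.6 and 18.1 CPM under siRNA 2, a log2 fold change of -0.96 ± 0.40. This was -0.53 without siRNA 1 and -0.50 without siRNA 2 at 36 h, and either omission takes out the whole 36 h pair. The other 8 (miR-340-5p, miR-671-5p, miR-3613-5p, miR-651-5p, miR-185-3p, miR-500a-3p, let-7f-5p and miR-181d-5p) had values from -1.21 to -0.32, of which those of miR-340-5p, miR-671-5p, miR-3613-5p and miR-651-5p came mostly from 36 h.

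miR-122-5p, the most abundant miRNA of normal liver cells, had the smallest p of the 435 but a mean count under 50, and is described because of that p. Its reads numbered 109, 94 and 10 with siRNA 1 at 24, 36 and 48 h and 11, 16 and 9 with siRNA 2. These are 32.6, 49.0 and 4.36 CPM against 4.78, 6.82 and 3.88 CPM, beside 46.2 CPM untreated, so siRNA 1 at 24 and 36 h stood with the untreated cells and the other 4 libraries were low. The level with siRNA 2 was 6.83-fold lower at 24 h (95% exact Poisson interval 3.67 to 14.1), 7.18-fold lower at 36 h (4.20 to 13.1) and 1.12-fold lower at 48 h (0.410 to 3.12). Over the 3 times the log2 fold change was -2.09 (unadjusted p = 0.0158 and adjusted p = 0.992 by edgeR, adjusted p 0.157 to 0.999 over the alternatives), and it ran from -2.81 to -1.64 with 1 library left out. miR-122-5p lies in an exon of MIR122HG at chromosome 18, 58451088 to 58451109, plus strand.

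**Figure D2:**
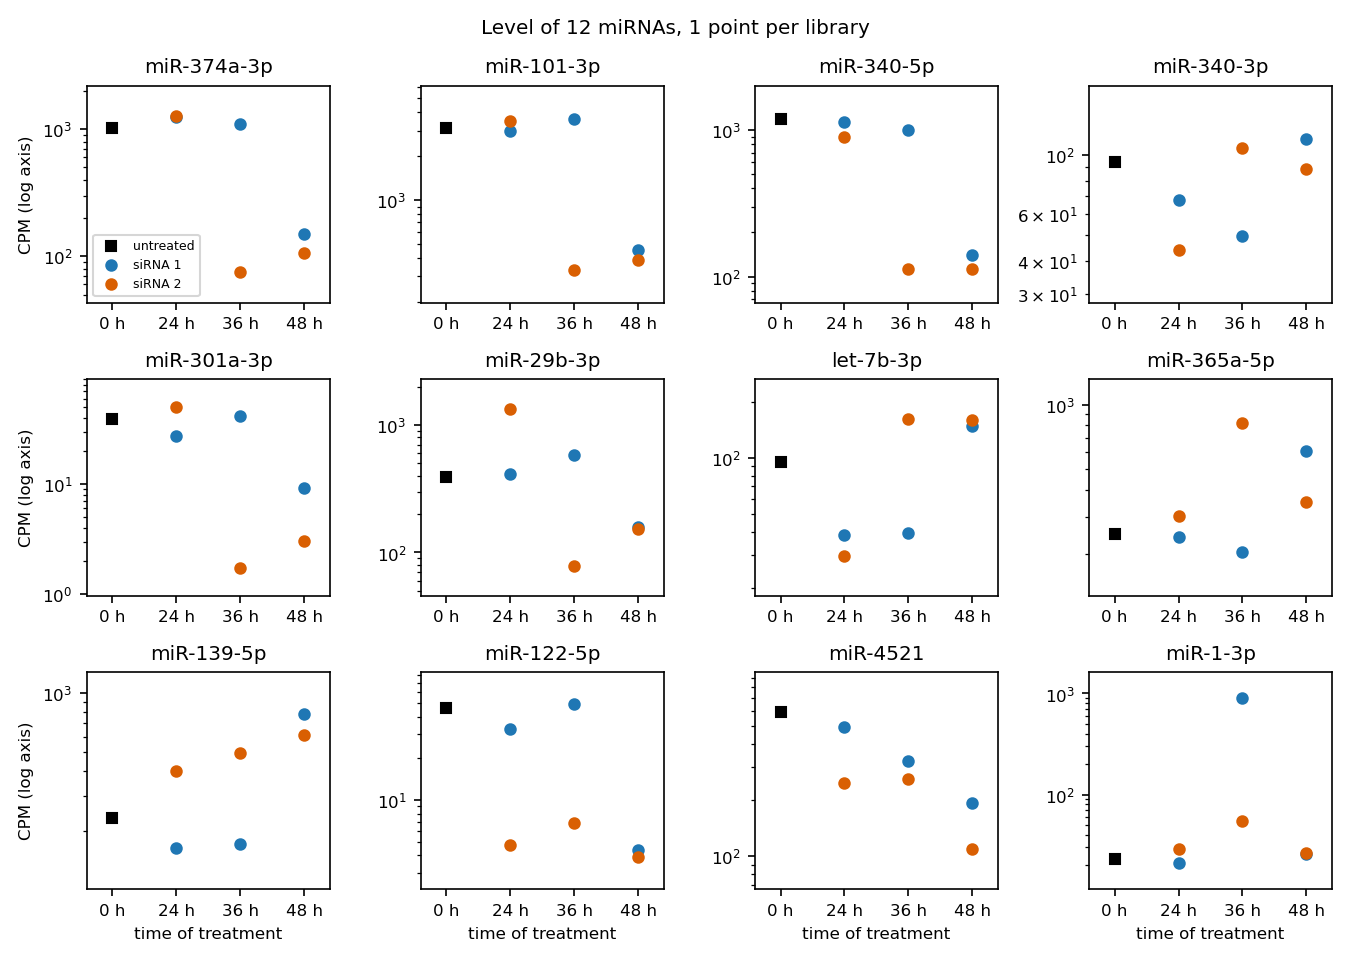
Level of 12 miRNAs in CPM on log axes against time of treatment, 1 point per library (black square untreated, blue siRNA 1, orange siRNA 2). For miR-374a-3p, miR-101-3p, miR-340-5p and miR-301a-3p the siRNA 1 point at 36 h stands with the 24 h and untreated points and the siRNA 2 point with the 48 h points.

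At each single time 1 library was set against 1, with no test, and a miRNA was counted when its log2 CPM (prior count of 2 reads) differed by more than 2-fold. At 24 h 21 miRNAs were higher with siRNA 2 (4.83%) and 12 lower (2.76%). At 36 h 73 were higher (16.8%) and 88 lower (20.2%), and at 48 h 7 were higher (1.61%) and 12 lower (2.76%). The SD of the log2 difference over the 435 miRNAs was 0.56, 1.20 and 0.47 at 24, 36 and 48 h, and the 36 h pair held 73.0% of the sum of squared differences. The differences at 24, 36 and 48 h were weakly related across the 435 miRNAs, which share libraries, depth and base composition (Pearson 0.09 for 24 and 36 h, -0.22 for 24 and 48 h, -0.18 for 36 and 48 h). The split depended on the scale: of the miRNAs past 2-fold at 24 h 63.6% were higher with TMM, 47.1% with total counts and 3.03% with all reads of a library, and at 36 h 45.3% with TMM and 63.9% with all reads. Total counts moved the median of all miRNAs from 0.04 to -0.08 at 24 h and from -0.05 to 0.12 at 36 h, and all reads moved it to -0.62 and 0.35, so each difference given is relative to the TMM scale.

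**Figure D3:**
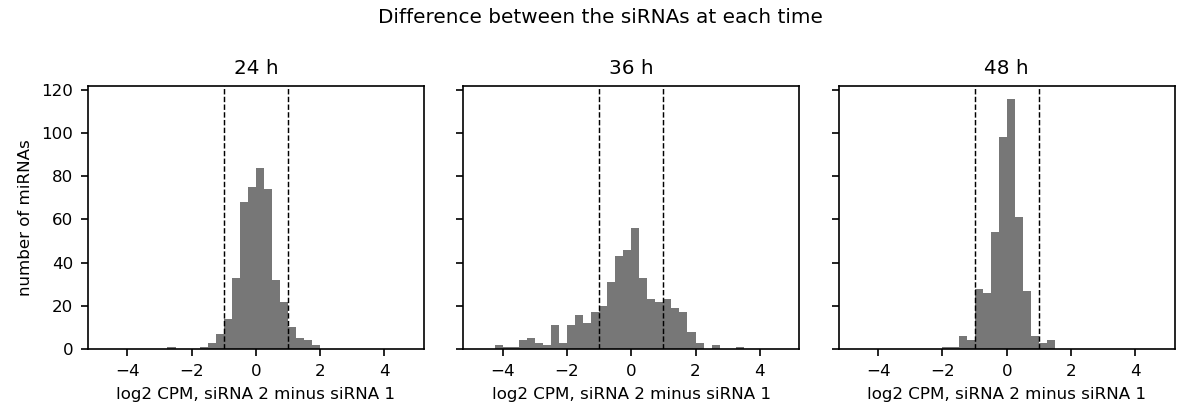
Number of miRNAs by log2 CPM under siRNA 2 minus siRNA 1 at 24, 36 and 48 h (435 miRNAs each), with dashed lines at 2-fold. The 36 h panel is the widest, with an SD of 1.20 against 0.56 and 0.47.

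At 36 h, many of the miRNAs with large differences stood with siRNA 1 near their 24 h level and with siRNA 2 near their 48 h level; miR-1-3p and miR-34c-5p did not and are described with the muscle and other markers. miR-374a-3p, from an intron of FTX on chromosome X (74287295 to 74287316, minus strand), stood at 1250, 1097 and 149 CPM under siRNA 1 and at 1267, 74.6 and 105 CPM under siRNA 2. At 36 h it was 14.7-fold lower with siRNA 2 (12.6 to 17.3). miR-101-3p, a repressor of the histone methyltransferase EZH2, had 2977, 3592 and 452 CPM under siRNA 1 and 3483, 332 and 385 CPM under siRNA 2, and was 10.8-fold lower at 36 h (10.0 to 11.6). The siRNA 1 libraries of 24 and 36 h and the siRNA 2 library of 24 h were high for both miRNAs, and the other 3 were low.

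miR-340-5p, from an intron of RNF130 on chromosome 5 (180015361 to 180015382, minus strand), stood at 1125, 993 and 141 CPM under siRNA 1 and at 891, 113 and 112 CPM under siRNA 2. It was 8.76-fold lower at 36 h (7.70 to 9.99). miR-542-3p, from the X-linked cluster with miR-424 and miR-503, stood at 126, 121 and 10.5 CPM under siRNA 1 and at 141, 11.1 and 10.3 CPM under siRNA 2. miR-3613-5p, from an intron of DLEU2, stood at 66.8, 70.8 and 15.7 CPM under siRNA 1 and at 58.2, 6.39 and 12.5 CPM under siRNA 2. In these 3 the groups overlapped in the same way, with 24 h high under both siRNAs and 48 h low under both.

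On the higher side, let-7b-3p, the passenger arm of let-7b in an exon of MIRLET7BHG on chromosome 22 (46113745 to 46113766, plus strand), stood at 38.3, 39.6 and 148 CPM under siRNA 1 and at 29.5, 162 and 160 CPM under siRNA 2. It was 4.08-fold higher with siRNA 2 at 36 h (3.18 to 5.29). miR-365a-5p, from an intron of MIR193BHG on chromosome 16 (14309300 to 14309322, plus strand), stood at 242, 206 and 610 CPM under siRNA 1 and at 301, 817 and 349 CPM under siRNA 2. It was 3.97-fold higher at 36 h (3.56 to 4.44) and 1.75-fold lower at 48 h (1.60 to 1.91), so its difference turned between these times. miR-10525-3p turned in the same way, at 110, 68.8 and 263 CPM under siRNA 1 and 148, 256 and 120 CPM under siRNA 2. So did miR-12136, at 21.9, 22.4 and 64.9 CPM under siRNA 1 and 31.3, 84.0 and 28.9 CPM under siRNA 2. miR-451a, miR-615-3p, miR-4664-3p and miR-1260b completed the 8 largest higher values among miRNAs averaging at least 50 reads, with log2 differences of 1.55 to 1.72.

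A further fit, chosen once the data had been seen, asked whether the difference at 36 h departed from that at 24 and 48 h, with a term for siRNA 2 at 36 h beside time and siRNA. edgeR called 49 of 435 with Benjamini-Hochberg adjustment, 12 with a higher difference at 36 h (2.76%) and 37 with a lower one (8.51%). Among the lower were miR-374a-3p (-3.65 ± 0.46, SE, adjusted p = 2.82e-12), miR-29b-3p (-3.73 ± 0.47, 3.16e-12), miR-101-3p (-3.43 ± 0.44, 4.14e-12), miR-106b-5p (-3.36 ± 0.49, 2.53e-09) and miR-340-5p (-2.80 ± 0.45, 8.03e-08). Among the higher were miR-365a-5p (2.24 ± 0.45, 5.78e-05), miR-10525-3p (2.25 ± 0.50, 0.000336), let-7b-3p (2.14 ± 0.54, 0.00191) and miR-222-3p (1.41 ± 0.43, 0.0139). The same term was also fitted at 24 h and at 48 h. Each of those fits leaves the 36 h pair in its residual, and that pair held 73.0% of the sum of squared differences. They thus cannot show whether 24 or 48 h departs. The terms of the 36 h fit match both 36 h libraries exactly, so the tested arm is 1 library. Its 1 residual degree of freedom comes from the 24 and 48 h libraries alone. The 36 h pair was picked for its spread, so these p-values are too small if libraries of 1 condition vary that much. It called 0 with all reads as the scale and 25 with DESeq2, and total counts put the higher share of calls at 40% where TMM put it at 24.5%.

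The difference between the siRNAs at 36 h ran parallel to the difference between 48 h and 24 h, which comes from the other 4 libraries. Pearson's r was 0.75 and Spearman's rho 0.72 across the 435 miRNAs, which are not independent and share base composition. From 24 h to 48 h, by the mean log2 CPM of both siRNAs, 32 miRNAs were past 2-fold higher (7.36%) and 63 past 2-fold lower (14.5%). Of the 88 miRNAs past 2-fold lower at 36 h, 50 (56.8%) were among those 63 (79.4%), and of the 73 past 2-fold higher, 21 (28.8%) were among those 32 (65.6%). None was past 2-fold in opposite directions. The 88 had a median of -1.19 from 24 h to 48 h and the 73 a median of 0.73. With the 48 h minus 24 h difference of siRNA 1 alone r was 0.76, and with that of siRNA 2 alone 0.62. miR-1-3p and miR-4521 stood outside the pattern: miR-1-3p differed by -4.02 at 36 h and 0.07 over time, and miR-4521 by -0.33 and -1.27.

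**Figure D4:**
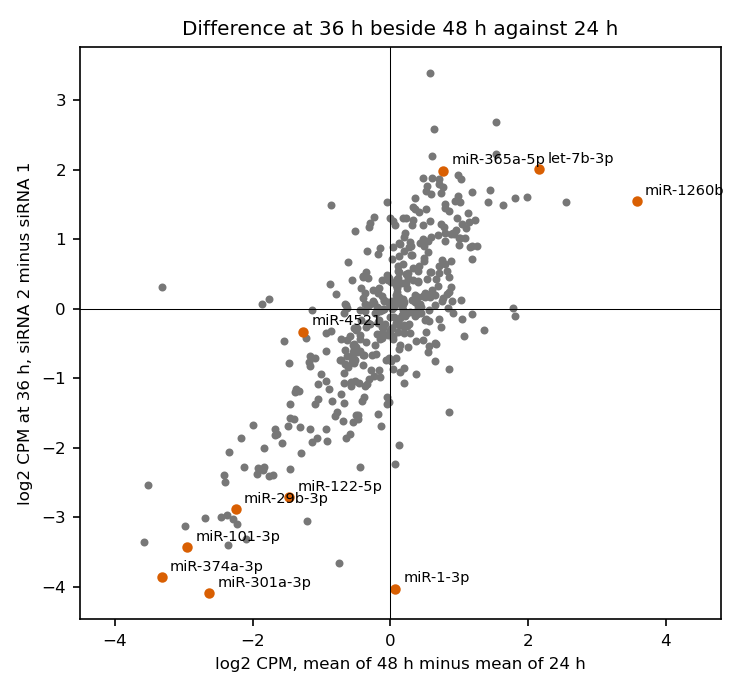
Log2 CPM at 36 h with siRNA 2 minus siRNA 1 against log2 CPM at 48 h minus 24 h (mean of both siRNAs), 1 point per miRNA (435), with 10 named miRNAs in orange. Pearson's r is 0.75, and miR-1-3p lies at the bottom near 0 on the time axis.

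Base composition moved with the difference at 36 h. Of the 74 miRNAs with under 40% G and C, 31 were past 2-fold lower with siRNA 2 at 36 h (41.9%) and 6 higher (8.11%), with a median of -0.66. Of the 233 with at least 50%, 26 were lower (11.2%) and 52 higher (22.3%), with a median of 0.16. At 24 and 48 h the medians of all 3 bands, the 128 between these limits included, lay from -0.05 to 0.07. Across the 435 miRNAs the Pearson correlation with GC content was 0.35 at 36 h, 0.09 at 24 h, 0.02 at 48 h and 0.37 for 48 h minus 24 h. With a linear GC trend removed from each library, 156 miRNAs were past 2-fold at 36 h in place of 161. The part of GC content in the result was not tested further.

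Arms of 1 hairpin, which come from 1 transcript, were further apart at 36 h than at 24 or 48 h, where single miRNAs also differed less. Among the 103 hairpins with both arms tested, the arms were over 2-fold apart in their difference between the siRNAs in 43 at 36 h (41.7%), beside 12 at 24 h (11.7%) and 7 at 48 h (6.80%). The difference of the 5p arm was nearly unrelated to that of the 3p arm at each time (Pearson 0.03, 0.11 and 0.00 across 103 hairpins). The SD of the gap between arms was 0.67, 1.45 and 0.55 at 24, 36 and 48 h, beside 0.56, 1.20 and 0.47 for single miRNAs. The share for pairs of miRNAs from different hairpins was not computed, so these shares do not set arms apart from other pairs. miR-340 shows the split most widely. Its 3p arm stood at 67.4, 49.5 and 115 CPM under siRNA 1 and at 43.9, 106 and 88.4 CPM under siRNA 2, a difference of 1.08 at 36 h where its 5p arm had -3.12. Both arms passed the test of the 36 h term, in opposite directions (adjusted p = 0.0365 for miR-340-3p by edgeR).

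The other 4 hairpins with such arms, miR-18a, miR-628, miR-222 and miR-99a, had them past 2-fold in opposite directions at 36 h, while none did at 24 or 48 h. Of these miR-18a, from the miR-17~92 cluster, had -2.31 for its 5p arm and 1.07 for its 3p arm. miR-628 had -1.28 and 1.93, miR-222 -1.15 and 1.07, and miR-99a had 1.01 for the abundant 5p arm and -2.24 for the 3p arm. At 36 h miR-628-5p had 28 reads with siRNA 1 and 13 with siRNA 2. miR-222-5p had 40 and 21, and miR-99a-3p 29 and 6, so these values rest on few reads. In other hairpins 1 arm stayed near 0: miR-106b had -3.03 and 0.11, and miR-424 -2.99 and 0.02. miR-301a had 0.02 for its 5p arm and -4.09 for its 3p arm. The 36 h libraries of siRNA 1 and siRNA 2 held 37 and 4 reads of miR-424-5p and 81 and 4 of miR-301a-3p. Of the 41 hairpins over 2-fold apart whose arms differed in GC content, the arm with the lower difference was the one with the lower GC content in 27.

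**Figure D5:**
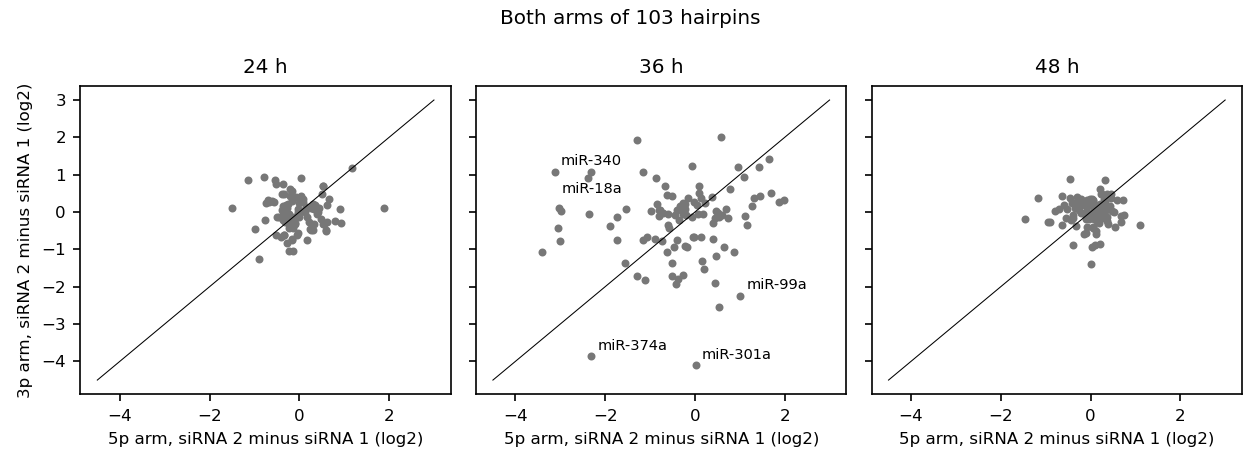
Log2 difference between the siRNAs (siRNA 2 minus siRNA 1) of the 3p arm against that of the 5p arm, 1 point per hairpin (103), at 24, 36 and 48 h, with the line of equal values. At 36 h 43 hairpins have arms over 2-fold apart, against 12 at 24 h and 7 at 48 h.

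Members of some seed families also differed at 36 h. The range over the members of a family ran from 0.14 (miR-30a-3p, miR-30d-3p and miR-30e-3p) to 4.01 (seed AUUGCAC), and the families described lie mostly at the wide end. Ranges for sets of miRNAs with unlike seeds were not computed, so the spread is not shown to be a trait of families. Of the miRNAs with the seed AUUGCAC printed above, miR-32-5p, from an intron of TMEM245, stood at 282, 386 and 57.1 CPM under siRNA 1 and at 290, 35.8 and 53.0 CPM under siRNA 2. Its log2 difference at 36 h was -3.40, and that of the fit at 36 h was -3.40 ± 0.51 (edgeR adjusted p = 4.7e-09). miR-25-3p had 0.15, miR-92b-3p 0.05 and miR-92a-3p 0.61 at 36 h. The GC content of these 4 was 31.8%, 50%, 63.6% and 54.5% in that order. In the family of miR-17, with the seed AAAGUGC, the differences at 36 h were -3.03 for miR-106b-5p, -2.07 for miR-106a-5p, -2.00 for miR-20a-5p, -1.30 for miR-17-5p, -0.62 for miR-93-5p and -0.47 for miR-20b-5p.

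miR-106b-5p and miR-93-5p come from 1 intron of MCM7 and had unlike levels over the libraries. miR-106b-5p stood at 359, 444 and 57.5 CPM under siRNA 1 and at 358, 53.7 and 92.3 CPM under siRNA 2. miR-93-5p stood at 1696, 1772 and 936 CPM under siRNA 1 and at 1280, 1156 and 1177 CPM under siRNA 2. The lowest level of miR-93-5p was that of siRNA 1 at 48 h, and its 6 values lay within 2-fold of each other.

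Among miRNAs with the seed AGUGCAA, miR-301a-3p, from an intron of SKA2 on chromosome 17 (59151149 to 59151171, minus strand), stood at 27.6, 42.2 and 9.15 CPM under siRNA 1 and at 50.8, 1.70 and 3.02 CPM under siRNA 2. It was 24.7-fold lower at 36 h (9.30 to 93.0), a value that rests on 4 reads with siRNA 2. The other members had -2.28 (miR-301b-3p), -0.94 (miR-130a-3p), -0.93 (miR-130b-3p) and -0.71 (miR-454-3p, from the same host gene). The let-7 passenger arms with the seed UAUACAA ranged from -0.77 for miR-98-3p over 0.40 and 0.50 for let-7f-1-3p and let-7a-3p to 2.01 for let-7b-3p. All 9 let-7 guide strands stayed within 2-fold at 36 h, from -0.74 to 0.59.

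At 24 h the miR-29 family, whose members repress collagen genes, held the largest difference among miRNAs averaging at least 50 reads. miR-29b-3p stood at 414, 587 and 158 CPM under siRNA 1 and at 1326, 78.9 and 153 CPM under siRNA 2, beside 393 CPM untreated. It was 3.20-fold higher with siRNA 2 at 24 h (3 to 3.41), 7.44-fold lower at 36 h (6.37 to 8.75) and 1.04-fold lower at 48 h (0.893 to 1.20), so the 24 h library of siRNA 2 held the highest level of all 7 and its 36 h library the lowest. miR-29c-3p followed it with differences of 1.19, -1.91 and 0.37, and miR-29a-3p had 0.11, -0.21 and 0.09. Of the 5 tested arms of this family 3 were past 2-fold higher at 24 h, where 4.83% of all miRNAs were.

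miR-139-5p, from an intron of PDE2A on chromosome 11 (72615102 to 72615124, minus strand), stood at 164, 171 and 783 CPM under siRNA 1 and at 403, 495 and 610 CPM under siRNA 2. It was 2.46-fold higher with siRNA 2 at 24 h (2.21 to 2.74), 2.90-fold higher at 36 h (2.56 to 3.29) and 1.28-fold lower at 48 h (1.20 to 1.38). miR-7706 stood at 270, 510 and 1233 CPM under siRNA 1 and at 569, 1434 and 1210 CPM under siRNA 2, so it was higher with siRNA 2 at 24 and 36 h and nearly level at 48 h. For both, the siRNA 1 libraries of 24 and 36 h were the lowest of the 6. miR-29c-5p, miR-1246, miR-135b-5p, miR-1226-3p and miR-301a-3p completed the 8 largest higher values at 24 h with that count, with differences of 0.86 to 1.18.

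Lower at 24 h was miR-301a-5p, at 138, 109 and 81.1 CPM under siRNA 1 and 62.1, 110 and 81.5 CPM under siRNA 2. This arm differed at 24 h alone (-1.15, then 0.02 and 0.01), whereas its opposite arm, miR-301a-3p, had 0.86, -4.09 and -1.38. miR-224-5p, from an intron of GABRE, stood at 4122, 3062 and 3332 CPM under siRNA 1 and at 2204, 4383 and 3923 CPM under siRNA 2. miR-1304-3p, miR-25-5p, miR-4521, miR-16-2-3p, miR-212-5p and miR-125a-5p had differences of -1.05 to -0.76.

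The 48 h libraries were nearest to each other of all pairs of 1 time. miR-4443 had the largest higher value among those averaging at least 50 reads, at 19.2, 33.9 and 38.4 CPM under siRNA 1 and 15.6, 31.5 and 103 CPM under siRNA 2, 2.70-fold higher at 48 h (2.10 to 3.48). miR-210-3p, which is induced by hypoxia through HIF, stood at 167, 209 and 191 CPM under siRNA 1 and at 170, 148 and 370 CPM under siRNA 2, 1.94-fold higher at 48 h (1.73 to 2.18). In both, the siRNA 2 library of 48 h was the single high one. miR-2277-5p, miR-326, miR-106b-5p, miR-450a-5p, miR-15b-5p and miR-660-5p had 0.55 to 0.88. On the lower side, with that count, were miR-301a-3p (-1.38, from 21 and 7 reads), miR-12136 (-1.15), miR-10525-3p (-1.12), miR-5010-3p, miR-7974, miR-590-3p, miR-4521 and miR-365a-5p, the last 5 from -0.92 to -0.80.

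The siRNA 1 library of 36 h held muscle miRNAs that the others lacked or had at low level. miR-1-3p, a miRNA of heart and skeletal muscle, stood at 21.0, 892 and 25.7 CPM under siRNA 1 and at 29.1, 54.1 and 26.3 CPM under siRNA 2, beside 22.9 CPM untreated. At 36 h it was 16.5-fold lower with siRNA 2 (13.8 to 19.9), and its difference at 36 h departed from the other times (-4.30 ± 0.53, edgeR adjusted p = 1.91e-12). miR-206, which shares its seed, had 13 reads in that library, 1 in each of the siRNA 2 libraries of 36 and 48 h and 0 in the other 4, which allows up to 3 reads in each. These 2 were the only miRNAs of any library with at least 10 reads and 10-fold over every other library.

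Markers of other cells were summed in the same way. The 7 muscle markers summed to 906 CPM in the siRNA 1 library of 36 h and to 21.9 to 55.0 CPM in the other siRNA-treated ones, while miR-133a-3p had 5 reads there and miR-133b 0. The 7 markers of multiciliated and germ cells summed to 51.6 CPM there and to 5.67 to 9.92 CPM elsewhere, mostly through miR-34c-5p (80 reads there, 3 to 19 elsewhere), while miR-34c-3p and miR-449b-5p were at 0. Blood markers summed to 82.7 CPM in the siRNA 2 library of 36 h and to 16.5 to 46.6 CPM in the other siRNA-treated ones, nearly all miR-451a, with miR-223-3p at 0. Fibroblast and endothelium markers summed to 1100 CPM in both 36 h libraries and to 449 to 865 CPM in the other 4, neuron markers to 47.6 to 61.3 CPM and pancreas markers to 9.58 to 31.5 CPM in the 6. The part of these cells in the differences at 36 h was not tested.

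By list, the miR-17~92 cluster of MIR17HG, known for its part in cell growth, was mostly lower with siRNA 2 at 36 h. Of its 10 tested arms 7 were past 2-fold lower and 2 higher, with a median of -1.64, beside 20.2% lower, 16.8% higher and a median of -0.05 over all miRNAs. The fit at 36 h called 5 lower (miR-17-5p, miR-18a-5p, miR-19a-3p, miR-19b-3p and miR-20a-5p). miR-20a-5p stood at 3405, 3612 and 853 CPM under siRNA 1 and at 2848, 902 and 892 CPM under siRNA 2. miR-92a-3p stood at 16640, 15526 and 18142 CPM under siRNA 1 and at 12360, 23742 and 20307 CPM under siRNA 2. Reads of miR-92a-3p cannot be assigned to MIR17HG alone, because it also lies on chromosome X in an exon of AC002407.1. Of the 5 arms of the miR-374 family and miR-421, 4 were past 2-fold lower (median -1.82, 2 called). Of the 5 tested members of the miR-15 and miR-16 family, 3 were (median -1.09), and miR-16-5p and miR-424-5p were called.

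The group of miR-10, miR-99 to miR-100 and miR-125 had a median of 0.46 at 36 h with 2 of 7 past 2-fold higher and none lower. Over all miRNAs 16.8% were past 2-fold higher at 36 h and 20.2% lower, so 2 of 7 is not far above the share of all. The 2 were miR-100-5p, at 38724, 34987 and 52062 CPM under siRNA 1 and 33798, 71796 and 56649 CPM under siRNA 2, and miR-99a-5p, at 30920, 30505 and 59360 CPM under siRNA 1 and 27288, 61581 and 63615 CPM under siRNA 2. The 7 tested entries listed as lying within structural RNAs had a median of 1.31 at 36 h, beside -0.05 over all miRNAs. The gene models used place miR-12136, a member of this list, in an intron of the pseudogene AL669831.3. Of these entries 4 were past 2-fold higher at 36 h, where 16.8% of all were. At 48 h 2 of the 7 were past 2-fold lower and none higher, beside 2.76% and 1.61% of all miRNAs. Over the 3 times all 7 had a log2 fold change above 0, beside 204 of all 435 (median 0.35 beside -0.02, 0 called). These entries include miR-1246, which stood at 32.3, 25.5 and 35.3 CPM under siRNA 1, 69.5, 35.4 and 36.2 CPM under siRNA 2 and 3.60 CPM untreated, and so was near 1 level in 5 of the 6 libraries.

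Of the 10 most abundant miRNAs, miR-100-5p and miR-99a-5p were past 2-fold, each at 36 h. The most abundant, miR-21-5p, stood at 325614, 307957 and 292443 CPM under siRNA 1 and at 501060, 214688 and 263642 CPM under siRNA 2, with a log2 fold change over the times of -0.02 ± 0.30. The siRNA 2 libraries held both its highest level, at 24 h, and its lowest, at 36 h. miR-7-5p had 36175, 20846 and 21138 CPM under siRNA 1 and 35728, 20694 and 12695 CPM under siRNA 2, and was 1.67-fold lower at 48 h (1.64 to 1.69). The siRNAs thus had nearly 1 level of miR-7-5p at 24 and 36 h, beside 65532 CPM untreated. The other 6 (let-7f-5p, miR-30a-5p, let-7i-5p, let-7a-5p, let-7g-5p and miR-92a-3p) had differences from -0.61 to 0.61 over all times.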

How the data were processed

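The authors deposited raw read counts per mature miRNA, 1 table per library, with summary lines of a read counter. Library sizes and tests leave these lines out. Reads of no feature made up 73.5% to 86.6% of the siRNA-treated libraries. Per the labels' protocols, total RNA went into a ligation-based small RNA kit. Which aligner, counter and genome build were used is not given in the sources used here, so coordinates are those of RefSeq GRCh38.p14 with gene models of GENCODE.

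The test was edgeR 4.0.16 (R 4.3.3, glmQLFit and glmQLFTest, TMM) with time and siRNA as terms on 6 libraries, 2 residual degrees of freedom and Benjamini-Hochberg adjustment at 0.05. CPM are counts over library size times TMM factor, and a prior count of 2 was added for log2 values. Ratios at 1 time carry exact conditional Poisson 95% intervals. Alternatives were limma-voom 3.58.1, DESeq2 1.42.0, other scales, filters, time terms and GC removal, and each library left out. Scripts were tested on simulated counts.

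Named were the 10 smallest p-values in each direction over the 3 times (mean count of at least 50, 1 sign at all times), the 8 largest differences in each direction at each time (same mean count), the 10 most abundant miRNAs and list members. Other miRNAs were chosen after their values were seen. Members, lists and tests were chosen with earlier results of these data known.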

Additional observations from a re-analysis of the deposited data

Results flagged for a closer look

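The difference between the siRNAs at 36 h departed from that at 24 and 48 h in 49 of 435 miRNAs by edgeR with Benjamini-Hochberg adjustment, 12 higher and 37 lower, in a fit chosen once the data had been seen. The call rests on the labels of 2 libraries and on the scale.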

How the results depend on the processing

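Over the 3 times 0 miRNAs were called under all 17 alternatives, the fit with no time term included. The labels give no shared replicate numbers; time took the place of the block, and No paired analysis was possible beyond it because each siRNA has 1 library at a time. The 21 named log2 fold changes kept their direction in all 356 alternative values. Each of these miRNAs had 1 sign at all 3 times, by the naming rule except for miR-122-5p. Leaving out a library could thus hardly turn a direction, and the kept direction is no support. Their size changed: miR-615-3p ran from 0.34 to 1.08 and miR-1260b from 0.25 to 1.03. The miRNA share difference ran from -3.92 to 1.51 points when 1 time was left out, and turned to 1.51 without 24 h. The count past 2-fold at 24 h (33) was 99 with all reads as the scale, 149 with no filter and 7 at a mean count of 50. At 36 h (161) it was 417 with no filter and 83 at a mean count of 50, and at 48 h (19) it was 206 and 5. The 36 h term, called for 49 miRNAs, gave 25 with DESeq2, 0 with all reads as the scale (65 at an unadjusted p under 0.05) and 31 with no filter, where 1497 miRNAs were tested; 45 to 54 were called under the other 5, limma-voom among them. The 25 of DESeq2 were all among the 49. The cause of the loss with all reads was not tested. That term leaves no residual degree of freedom when a library is left out, so it has no such value. With no filter the correlation of the 36 h difference with 48 h minus 24 h was 0.49. Values under 1.56 CPM can rest on 3 reads or fewer.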
